A study of Bos taurus with 16 samples.

Results

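Guanylate-binding proteins (GBPs) are large GTPases of the dynamin superfamily that cells make in response to interferons. In human and mouse cells they gather on the membranes of intracellular bacteria, parasites and viral compartments, and some of them help to start inflammasome signalling. Interferon gamma is their best known inducer, acting in part through IRF1, and type I interferons also raise them. Interferon tau is a type I interferon that the ruminant conceptus secretes, and the corpus luteum is one of the tissues it can reach.

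The GBP genes were taken as the rows of the 16-sample table whose symbol is GBP followed by a number and whose normalized count was 10 or more in 4 or more of the 16 samples. 3 genes met this rule, GBP2, GBP4 and GBP5, of 18705 genes in the table and 14122 that passed the same level. A further 2 rows, both named GBP6 in the deposited table (gene IDs 533657 and 536917), carried the symbol but not the level. RefSeq lists them only as LOC533657 and LOC536917, and their values are given apart. RefSeq names another row of the table GBP1 (gene ID 512486), which the deposited table lists as LOC512486. It is described beside the members and is not counted among them. A normalized count here is the number of reads assigned to a gene divided by a size factor of its sample, so it compares 1 gene between samples and not different genes with each other. None of the GBP sequences is shown, since no protein or promoter sequence was used here.

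RNA was measured in 16 cultures of primary mixed luteal steroidogenic cells of cattle (Bos taurus), in 4 groups of 4. The groups were treated for 24 hours with both IFNT (interferon tau, 1 ng/mL) and PGF2A (prostaglandin F2 alpha, 10 ng/mL), with IFNT alone, with PGF2A alone, or with no treatment (control). PGF2A is the luteolytic hormone, which brings about regression of the corpus luteum. All 4 groups, control included, were kept in medium with luteinizing hormone (LH) at 10 ng/mL, and the corpora lutea came from days 10 to 12 of the oestrous cycle. Replicate wells of a treatment were pooled before RNA was extracted. The labels number the samples 1 to 4 in each group without saying whether a number is an animal, so the p-values speak only of the variation among these 16 cultures, which may be technical in part.

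The libraries held 23786067 to 25906276 gene-assigned reads each. All 8 markers of luteal steroidogenic cells were present, with CYP11A1, the enzyme that starts steroid synthesis, at 10720 to 43700 normalized counts. The cultures also held transcripts of other cell types: the summed endothelial markers ran from 10300 to 38260 and the collagen gene COL1A1 from 148300 to 504100. Immune markers were low, at 466.2 to 852.9 for 9 macrophage markers together and 33.85 to 129.9 for 8 T and NK cell markers. In such bulk samples, more cells of a type and more RNA per cell cannot be told apart.

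GBP4 had the largest response of the members. In mouse and human cells GBP4 is an interferon-induced GTPase that has been linked to the control of IRF7. It had 4781, 4471, 6336 and 5637 normalized counts in the IFNT+PGF2A cultures (numbers 1 to 4) and 4984, 4770, 6593 and 4668 in the IFNT cultures. Without IFNT it had 51.7, 17.9, 29.8 and 6.89 in the PGF2A cultures and 54.6, 18.7, 35.2 and 9.15 in the control cultures. The cultures with IFNT and those without it lay far apart, while the cultures with and without PGF2A overlapped. GBP4 averaged 5253 ± 903 with IFNT and 29.4 ± 20.0 in control (SD, n = 4 each). The log2 difference was 7.73 (SE 0.52; limma adjusted p = 3.5e-08), which ranked 7 among the 14122 genes tested. In control, GBP4 rested on 9 to 57 reads per library. It reached the level for testing in 6 of the 8 cultures without IFNT, and GBP2 and GBP5 in 8 of 8.

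GBP2, which in human cells carries a prenyl anchor and helps to restrict viruses and bacteria, rose less than GBP4. Its normalized counts were 3105, 2607, 4640 and 3480 with IFNT+PGF2A, and 3195, 2845, 5063 and 2546 with IFNT. In the PGF2A cultures they were 160, 55.8, 159.9 and 48.2, and in control 152.3, 49.5, 86.6 and 40.7. Again the lowest culture with IFNT was above the highest culture without it. GBP2 averaged 3412 ± 1132 with IFNT and 82.3 ± 50.8 in control (SD, n = 4 each), a log2 difference of 5.51 (SE 0.44; limma adjusted p = 2e-07) that ranked 47.

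GBP5, known in human and mouse cells as a promoter of NLRP3 inflammasome assembly and an inhibitor of viral envelope maturation, differed most between the sample numbers. Its normalized counts were 538.1, 2275, 3162 and 663.1 with IFNT+PGF2A and 506.4, 2463, 3279 and 532.4 with IFNT. They were 77.6, 112.5, 318.8 and 46.2 with PGF2A and 60.3, 101.8, 239.8 and 36.6 in control. Numbers 2 and 3 were above numbers 1 and 4 in every group, and within each number the cultures with IFNT were above those without. GBP5 averaged 1695 ± 1398 with IFNT and 109.6 ± 90.9 in control (SD, n = 4 each). The log2 difference was 3.82 (SE 0.79; limma adjusted p = 0.0024), rank 123.

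GBP1, which in human cells coats the surface of cytosolic bacteria and forms a platform for caspase-4, was not near 0 in any culture without IFNT. It had 5655, 6725, 6720 and 5826 normalized counts with IFNT+PGF2A, and 5890, 7240, 6947 and 5304 with IFNT. The PGF2A cultures had 736.7, 484.8, 570.1 and 295.1, and the control cultures 1016, 483.8, 365.4 and 357.8. GBP1 averaged 6345 ± 905 with IFNT and 555.8 ± 312.3 in control (SD, n = 4 each), a log2 difference of 3.64 (SE 0.30; limma adjusted p = 2.5e-07).

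**Figure D1:**
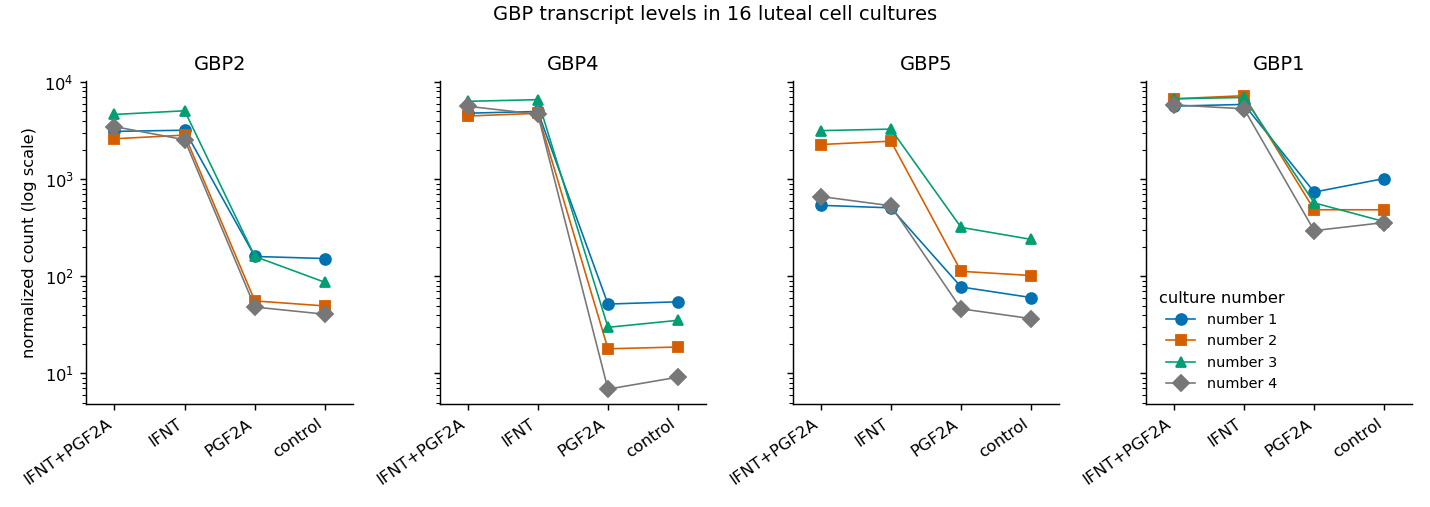
Normalized counts (log scale) of GBP2, GBP4, GBP5 and GBP1 in each of 16 cultures, by group; each line joins the 4 cultures of 1 number. In all 4 panels the cultures with IFNT lie above those without it, GBP4 spans the widest gap, and numbers 2 and 3 lie above numbers 1 and 4 for GBP5 in every group.

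All 3 members rose with IFNT in the absence of PGF2A, where 13.1% of all genes tested were called higher by limma at an adjusted p under 0.05. When the sample number was a block in the model the 3 were again called, against 21.3% of all genes. The SE was then 0.39 for GBP4, 0.28 for GBP2 and 0.23 for GBP5, whose limma adjusted p was 2.8e-08. In all 3, the IFNT and control groups did not overlap, as in 12.1% of genes tested. The difference was positive in 4 of 4 same-number pairs for each gene. For GBP4 the pairs gave 6.50, 7.96, 7.53 and 8.92 in numbers 1 to 4 (log2), for GBP2 4.39, 5.83, 5.86 and 5.95, and for GBP5 3.06, 4.59, 3.77 and 3.85. Number 1 had the smallest log2 difference for each member. Over the 1851 genes called higher in this comparison, the median difference was also smallest in number 1, at 0.76, against 0.97, 0.98 and 0.87 in numbers 2 to 4. In the authors' deposited table for this pair, the log2 fold changes were 7.48 (SE 0.40) for GBP4, 5.37 (SE 0.40) for GBP2 and 3.95 (SE 0.84) for GBP5.

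The presence of PGF2A left the call of each member in place. Between the IFNT+PGF2A and PGF2A cultures all 3 members rose, where 12.3% of genes tested were called higher and 20.9% with the number as a block. GBP4 averaged 5306 ± 845 with IFNT+PGF2A and 26.6 ± 19.2 with PGF2A (SD, n = 4 each; log2 difference 7.93, SE 0.52, limma adjusted p = 3.2e-08). GBP2 averaged 3458 ± 865 with IFNT+PGF2A and 106.0 ± 62.4 with PGF2A (5.21, SE 0.44, limma adjusted p = 4.3e-07). GBP5 averaged 1660 ± 1276 with IFNT+PGF2A and 138.8 ± 123.0 with PGF2A (3.56, SE 0.79, limma adjusted p = 0.0045). Without number 2 in any group, the GBP5 difference was 3.31 with limma adjusted p = 0.058. With the number as a block the limma adjusted p was 5.8e-08 over all 4 numbers and 3.4e-06 without number 2. The groups did not overlap for any of the 3, as in 15.7% of genes tested, and the difference was positive in 4 of 4 pairs each. GBP1 differed by 3.65 (SE 0.30; limma adjusted p = 2.8e-07).

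The IFNT+PGF2A cultures were also compared with control, which shares its samples with both of the comparisons above. All 3 members rose, where 12.4% of genes tested were called higher, or 21.1% with the block, and groups did not overlap in 14.9% of genes. The log2 differences were 7.74 for GBP4 (SE 0.52; limma adjusted p = 3.7e-08), 5.55 for GBP2 (SE 0.44; limma adjusted p = 2e-07) and 3.88 for GBP5 (SE 0.79; limma adjusted p = 0.0023).

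No member passed the test of PGF2A, with or without IFNT. Between PGF2A and control, 0% of genes tested were called by limma, although 155 genes had an unadjusted p under 0.05. edgeR also called 0 and DESeq2 called 2, and 0.163% were called with the block. GBP2 differed by 0.34 (95% interval -0.59 to 1.28), GBP5 by 0.31 (-1.381 to 2.004) and GBP4 by -0.19 (-1.31 to 0.93), each with limma adjusted p = 1. GBP2 and GBP5 were higher with PGF2A in 4 of 4 pairs and GBP4 was lower in 4 of 4, by small amounts. With the block the intervals narrowed to -0.26 to 0.94 for GBP2, -0.19 to 0.81 for GBP5 and -1.03 to 0.65 for GBP4, and all still held 0. The largest pair difference was that of GBP2 in number 3, at 0.88, from 159.9 normalized counts with PGF2A and 86.6 in control.

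Between IFNT+PGF2A and IFNT, 0.00708% of genes tested were called, or 0.701% with the block, and none of these calls was a member. GBP4 differed by 0.02 (95% interval -1.10 to 1.13), GBP2 by 0.04 (-0.90 to 0.98) and GBP5 by 0.06 (-1.63 to 1.75). With the block the intervals were -0.83 to 0.86, -0.56 to 0.64 and -0.44 to 0.56 for the same genes. The sign of the GBP5 difference depended on the tool: it was -0.03 in edgeR and DESeq2, and -0.03 in the authors' deposited table. In number 4 all 3 members were higher with IFNT+PGF2A, by 0.27 for GBP4, 0.45 for GBP2 and 0.32 for GBP5 (log2). In numbers 2 and 3 all 3 were lower.

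The interaction asks whether the rise with IFNT differed in size with and without PGF2A. None of the genes tested was called (0% without and 0% with the block), although in limma 40 genes had an unadjusted p under 0.05. edgeR and DESeq2 also called 0. The estimate was 0.20 for GBP4 (95% interval -1.38 to 1.79), -0.30 for GBP2 (-1.63 to 1.02) and -0.25 for GBP5 (-2.65 to 2.14). With the block these intervals were -0.98 to 1.39, -1.15 to 0.55 and -0.96 to 0.45. Without the block, the intervals of all 3 members hold differences in the IFNT response of 1 on the log2 scale in either direction, and that of GBP5 holds differences of 2.

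**Figure D2:**
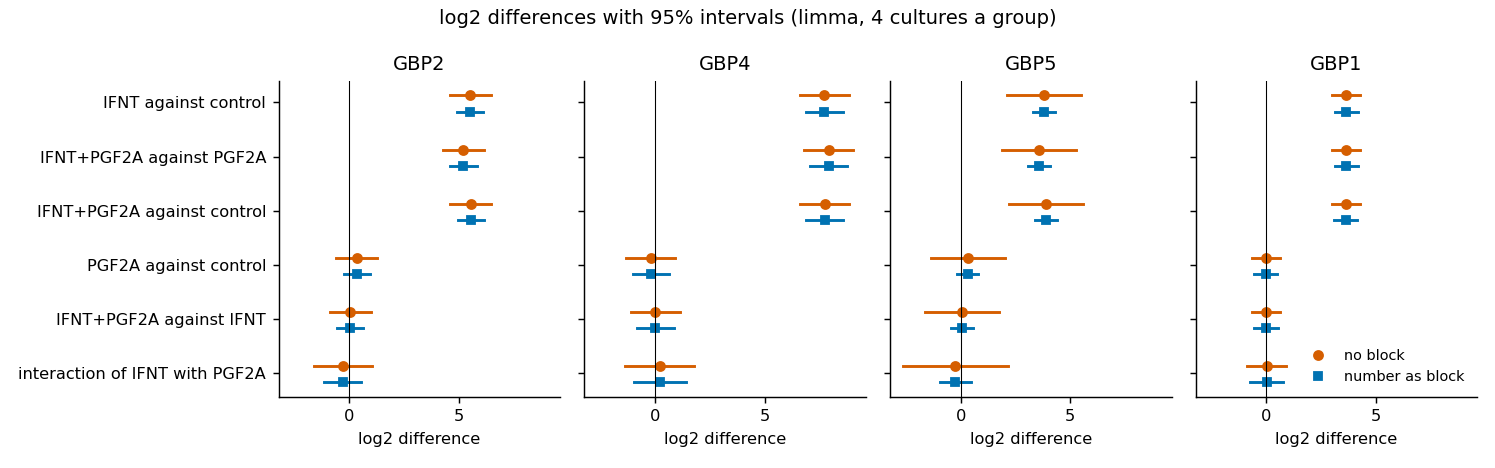
log2 differences (points) with 95% intervals (lines) for GBP2, GBP4, GBP5 and GBP1 in 5 comparisons and the interaction, from limma without (circles) and with (squares) the sample number as a block, 4 cultures a group. The 3 comparisons of cultures with IFNT and cultures without it lie above 0 in each panel, and the other intervals hold 0; for GBP5 the block shortens them most.

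The members differed in how the cultures within a group varied. GBP4 spread widely without IFNT, the highest control culture having 5.97 times the lowest, and little with it, at 1.41 times. GBP2 gave 1.99 times with IFNT and 3.75 times in control. GBP5 kept its spread, at 6.47 times with IFNT and 6.55 times in control. Across all groups the residual SD of GBP5 was 1.26 on the log2 scale, above that of 98.5% of genes tested, and that of GBP4 was 0.83 and of GBP2 0.69. The sample number accounted for 93.2% of the residual variance of GBP5, against 65.8% for GBP2, 52.6% for GBP4 and a median of 61.1% over all genes tested. Number 3 lay above its group mean by 1.32 to 1.58 for GBP5 in the 4 groups, and number 4 lay below it by 0.93 to 1.22 (log2; deviations of -1.22 to -0.93).

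The order of the numbers also differed between members in cultures without IFNT. GBP4, GBP2 and GBP1 were highest in number 1 of the control group, while GBP5 was highest in number 3. In control the summed endothelial markers were 10490, 27350, 22370 and 14150 in numbers 1 to 4, so numbers 2 and 3 were high for these markers as well as for GBP5. With IFNT the sums were 12940, 31900, 29670 and 38260, highest in number 4, where GBP5 was low. The part of cell makeup in the differences between numbers was not tested.

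The first GBP6 row (gene ID 533657) was seen almost wholly in cultures of number 3. With IFNT+PGF2A it had 352 reads in number 3 and 0 in numbers 1, 2 and 4. With IFNT it had 401 reads in number 3, 1 in number 2 and 0 in numbers 1 and 4. The PGF2A culture of number 3 had 9 reads and the control culture of number 3 had 1, and all other cultures without IFNT had 0. Number 3 thus held 763 of the 764 reads, or 99.9%. A count of 0 allows up to 3 reads in a library, a limit that covers counting error only. As normalized counts, number 3 had 365.6 with IFNT+PGF2A, 411.9 with IFNT, 8.94 with PGF2A and 0.952 in control. Nearly all reads are in 1 number, so the pattern has no replicate and no test.

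The gene next to it in RefSeq's order, LOC510382, which was chosen after its values were seen, had the same pattern. In numbers 1 to 4 it had 1.95, 2.02, 1185 and 5.07 normalized counts with IFNT+PGF2A and 4.92, 4.88, 1256 and 3.08 with IFNT. It had 3.83, 2.99, 17.9 and 0 with PGF2A and 1.92, 1.87, 16.2 and 2.03 in control. Of its 2434 reads, 98.6% were in number 3. Among 14262 genes with at least 100 reads over the 16 samples, 2 had at least 95% of them in number 3, and these were the GBP6 row and LOC510382. The same count was 0 for number 1, 2 for number 2 and 3 for number 4. LOC510382 did not pass the test of IFNT against control (limma adjusted p = 0.47, and 0.095 with the block). The other GBP6 row (gene ID 536917) had 3 reads in all, 2 in the IFNT+PGF2A culture of number 2 and 1 in the IFNT culture of number 3.

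**Figure D3:**
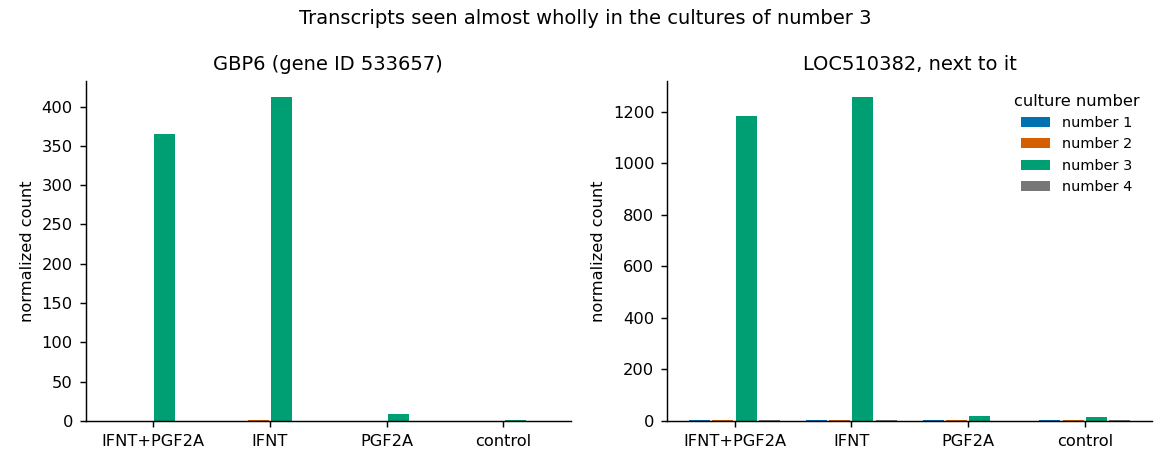
Normalized counts of the GBP6 row with gene ID 533657 and of LOC510382 in each of 16 cultures, by group and number. Only the bars of number 3 rise visibly above 0, to 365.6 and 411.9 for GBP6 with IFNT+PGF2A and with IFNT, and to 1185 and 1256 for LOC510382.

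GBP genes lie side by side in mammalian genomes, and in RefSeq's bovine gene order GBP5, GBP1, GBP4 and both GBP6 rows fall in 1 run between LRRC8B and KYAT3. The ID of GBP2 in the deposited table was not matched there, so its place is not given. The run holds 25 genes, of which 15 were in the 16-sample table and 11 were tested. Besides GBP4, GBP5 and GBP1 it had 8 tested genes, which RefSeq lists only by number. Of these, 5 reached the level for testing in at least 4 of the 8 cultures without IFNT, so that their being tested did not depend on IFNT. All 5 rose with IFNT against control, also with the block, and between IFNT+PGF2A and PGF2A. Of all genes tested, 13.1% were called higher for IFNT against control, or 21.3% with the block. For IFNT+PGF2A against PGF2A the share was 12.3%. The log2 differences of these 5 genes for IFNT against control ran from 3.998 for LOC511531 to 5.66 for LOC100336669. LOC781710 and LOC513659 would not have been tested without the cultures with IFNT. Such a choice favours a difference, so they are given as a description. LOC781710 had 505.2 ± 305.4 normalized counts with IFNT and 4.76 ± 6.11 in control (SD, n = 4 each). The remaining gene is LOC510382, described above. The flanking genes moved less: KYAT3 rose by 0.68 (limma adjusted p = 0.00089) and LRRC8B fell by 0.88 on the log2 scale (limma adjusted p = 0.00091). These neighbours were chosen for their place, after earlier results were known, and near-identical copies in the run can share reads, so the split of reads between them is uncertain.

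**Figure D4:**
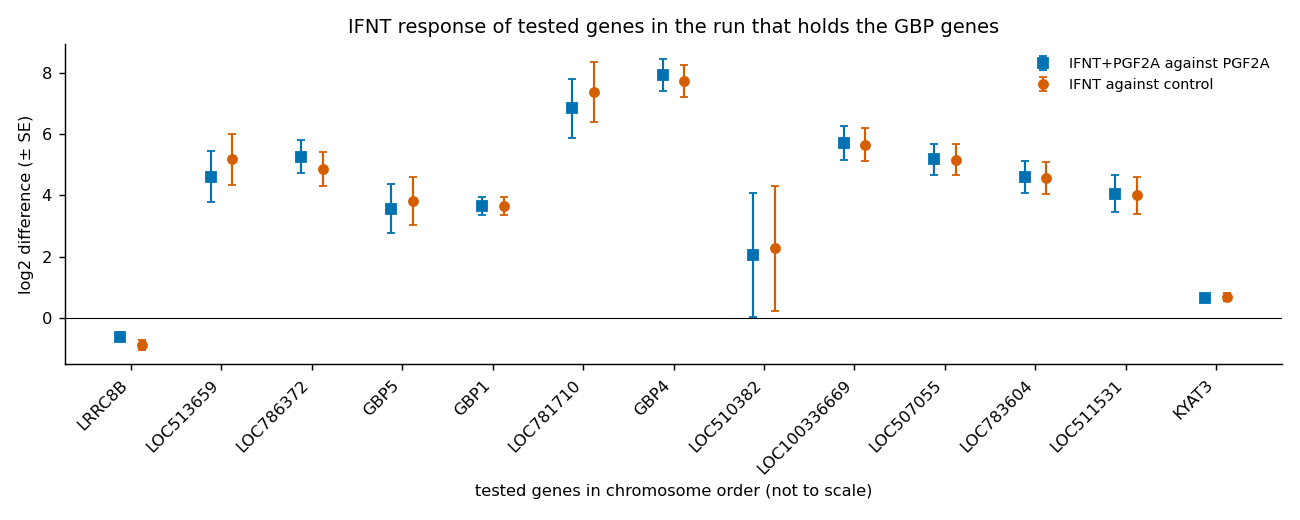
log2 differences (± SE, limma without block) of the tested genes from LRRC8B to KYAT3 in chromosome order, for IFNT+PGF2A against PGF2A (squares) and IFNT against control (circles). The 2 flanking genes lie near 0 and the genes between them higher, GBP4 highest, and the longest bars belong to LOC510382.

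The other lists cover what GBP genes depend on or work with. Interferon signalling genes rose in 10 and fell in 2 of 19 tested for IFNT against control. Of all genes tested, 13.1% were called higher and 10.9% lower in that comparison. The median log2 difference of the list was 0.36, against -0.04 over all genes. IRF1, which binds and activates GBP genes in human and mouse cells, averaged 4640 ± 715 with IFNT and 1178 ± 297 in control (1.99, SE 0.18, limma adjusted p = 6.9e-07). STAT2, a transcription factor of type I interferon signalling, rose by 2.37 and USP18, a feedback inhibitor of the receptor, by 5.13. The transcript of interferon gamma itself, IFNG, was near 0, at means of 0.244 with IFNT+PGF2A, 0.246 with IFNT, 0 with PGF2A and 0.239 in control.

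Of 12 tested genes for inflammasome and caspase partners, 9 rose and 0 fell with IFNT, with a median of 1.07. Among all genes, 13.1% were called higher and 10.9% lower. CASP4, the caspase that senses bacterial lipopolysaccharide on GBP coats in human cells, averaged 6709 ± 1188 with IFNT and 1422 ± 208 in control (2.23, SE 0.15, limma adjusted p = 3e-08). RBCK1, a subunit of the linear ubiquitin ligase that joins GBP coats, rose by 1.74. Of the 4 list members not tested for low level, AIM2, CASP1, NLRP1 and NLRC4, the highest group mean was 4.29. NLRP3, the sensor that GBP5 acts on in mouse cells, was tested and did not pass, at 5.57 ± 3.83 with IFNT and 8.42 ± 1.96 in control (-0.84, limma adjusted p = 0.37).

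Enzymes that add or process prenyl anchors, on which several GBPs depend, moved little. Of 8 tested, 2 rose and 1 fell, with a median of 0.00394 on the log2 scale. For this list and the next, the shares of all genes were 13.1% called higher and 10.9% lower. RABGGTB, a subunit of the transferase for Rab proteins, rose by 0.52 (limma adjusted p = 0.008), and ICMT, which methylates prenylated ends, fell by 0.41 on the log2 scale (limma adjusted p = 0.016). Of 16 other dynamin-like and immunity GTPases, 7 rose and 2 fell, with a median of 0.16. ATL3, an atlastin, of the GTPase group nearest to the GBPs, averaged 5307 ± 1060 with IFNT and 2049 ± 204 in control (1.36, SE 0.13, limma adjusted p = 1.4e-06), and the mitofusin MFN2 rose by 0.80.

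With PGF2A present the counts were close. For IFNT+PGF2A against PGF2A the signalling list had 10 rises and 1 fall, and the inflammasome list 8 and 0. The prenylation list had 2 and 1, and the GTPase list 6 and 2. Of all genes tested, 12.3% were called higher and 8.54% lower. None of the 55 tested genes of these lists was called for PGF2A against control or for IFNT+PGF2A against IFNT, in either fit. Among these tested genes, 3 had a log2 difference between IFNT and control above that of GBP5: USP18 (5.13) and the dynamin-like antiviral GTPases MX1 (5.99) and MX2 (9.24).

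**Figure D5:**
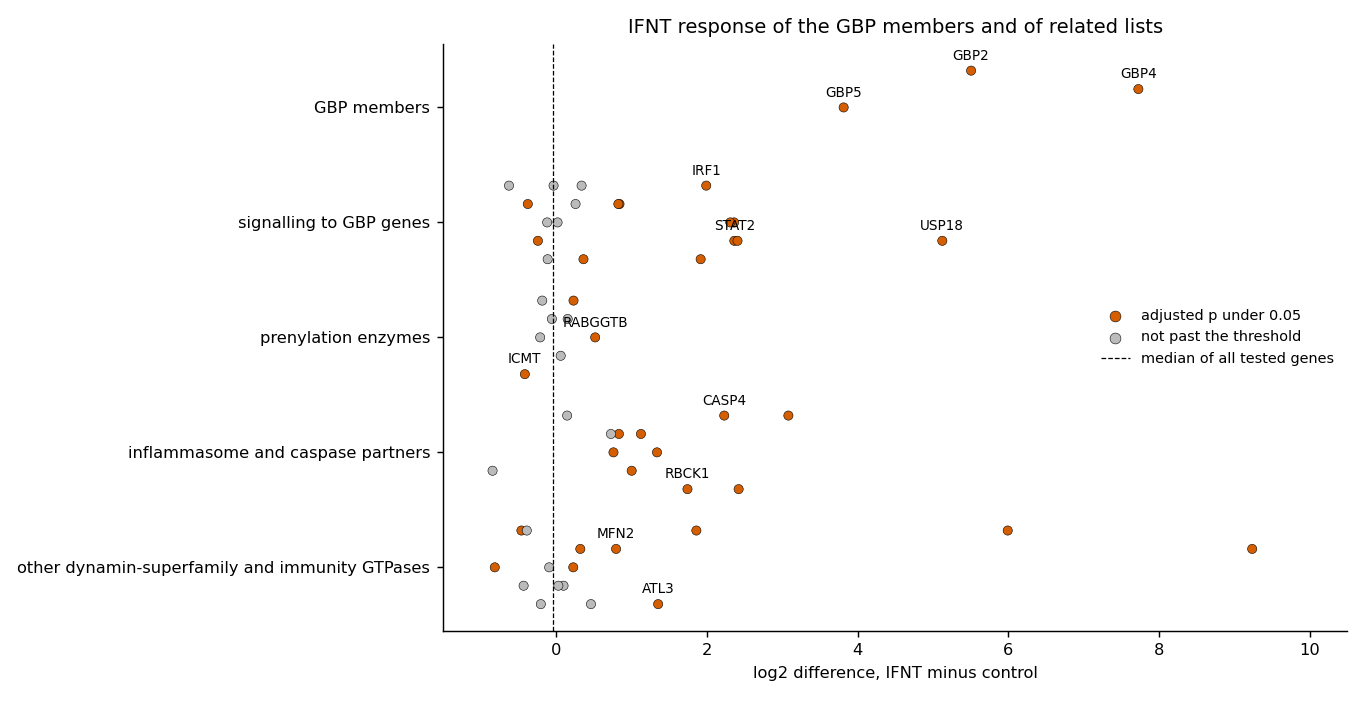
log2 differences between IFNT and control for the 3 GBP members and for 4 related gene lists; each point is a tested gene, coloured by whether its limma adjusted p was under 0.05, and the dashed line is the median of all 14122 genes, -0.04. Labels mark some of the genes named in the text; the members lie at 3.82 to 7.73, right of most listed genes.

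Some markers of the cell types in the cultures also differed with IFNT, and the part of cell makeup in the GBP rise was not tested. Of the 8 markers of luteal steroidogenic cells, 2 fell and 0 rose with IFNT against control, and with the block 5 fell and 1 rose. Over all genes tested, 10.9% were called lower without the block. With the block 6140 of 14122 genes were called in either direction, 3015 of them higher. CYP11A1 averaged 16420 ± 3623 with IFNT and 33340 ± 7166 in control (log2 difference -1.025, limma adjusted p = 0.0021), and NR5A1, a transcription factor of steroidogenic cells, 801.1 ± 149.2 with IFNT and 1361 ± 262 in control (-0.76, limma adjusted p = 0.0023). The summed steroidogenic markers were lower with IFNT in 3 of 4 pairs. Of 10 endothelial markers 2 rose and 0 fell, with a median log2 difference of 0.79, and with the block 8 rose. The shares of all genes called higher were 13.1%, and 21.3% with the block. Their sum was 12940 to 38260 with IFNT and 10490 to 27350 in control, overlapping ranges, and was higher with IFNT in 4 of 4 pairs.

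The macrophage marker sum was 605.7 to 852.9 with IFNT and 502.8 to 679.4 in control, higher in 4 of 4 pairs. Of 7 macrophage markers tested, C1QA and C1QB reached the level for testing only through cultures with IFNT, so they are not counted. Of the other 5, 0 rose and 0 fell, and with the block 2 rose and 1 fell. The T and NK cell sum was 89.25 to 125.9 with IFNT and 47.63 to 83.33 in control, and 1 of 2 tested markers rose, or 2 of 2 with the block. The B cell sum was 26.67 to 59.59 with IFNT and 4.67 to 13.22 in control. For these last 2 lists the groups did not overlap, as for the GBP members. The B cell markers tested reached the level only through cultures with IFNT, so no count of them is given. MS4A1 and CD79B, which define B cells, never exceeded 2.05 normalized counts. Of 6 fibroblast markers THY1 rose (1.07) and LUM fell (-0.61), and PDGFRB rose (0.47) among 6 markers of pericytes and smooth muscle. With the block 1 fibroblast marker rose and 3 fell, and 2 pericyte markers rose. Beside these counts, 13.1% of all genes were called higher and 10.9% lower without the block. With the block 21.3% were called higher. In that fit 6140 of 14122 genes were called in either direction, 3015 of them higher, so falls were also more frequent than without the block.

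The genes whose pattern was most like that of the members were found by Pearson's r between each tested gene's log2 values and the mean of the 3 members' standardized values. Over the 16 samples the 5 with the highest r were LOC508153 (0.994), IFIT2 (0.994), SLFN11 (0.993), IFI16 (0.992) and LOC507055 (0.992). LOC507055 is in the same run as the GBP genes. When each group's mean was first subtracted, so that only differences between cultures of 1 group counted, they were CLEC2D (0.927), LOC511531 (0.922), MIC1 (0.908), LOC511936 (0.900) and RSAD2 (0.899). LOC511531 again lies in the run. By that measure GBP2 and GBP4 themselves had r of 0.915 and 0.902 with the member mean, and GBP5 0.704. Each member is part of that mean, which raises its r, so these r are not comparable with those of other genes. All the r values describe likeness across 16 cultures that share 4 numbers and carry no test.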

How the data were processed

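RNA-seq was measured in 16 cultures. The submitters' processing notes name RSEM 1.2.8, Bowtie2 2.2.5, HISAT2 2.0.4 and DESeq2. Build, annotation and use of strand were not given in the sources used here. RSEM shares out reads between similar genes, so the split between GBP copies is uncertain. The deposited values per sample are a signal: read counts divided by a size factor per sample (0.963 to 1.071), and multiplying back gave whole reads, to within 0.001, for 100% of values. The authors' deposited tables also hold log2 fold changes, their standard errors and test statistics (scores), p-values and adjusted p-values. Names were matched by ID to RefSeq (ARS-UCD2.0): 17768 of 18705 matched.

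Because values are normalized, genes were compared in R 4.3.3 by limma 3.58.1 (variance prior following mean level) after taking log2(normalized count + 0.5). All 16 samples entered, each group had 1 mean, and no block was used. The added 0.5 shrinks differences of low genes, but a mean of log2 values also differs from the log2 of a mean. GBP4 with IFNT against control gave 7.73 here and 7.48 in edgeR and DESeq2. Genes at 10 or more in at least 4 samples were tested (14122), with Benjamini-Hochberg adjustment over all of them and a threshold of 0.05. Whether numbers pair the samples was checked on deviations from group means: 24 same-number pairs correlated at 0.352 to 0.719, and 72 pairs of other numbers at most at 0.0402. On this evidence the numbers pair the cultures; the labels do not state it. edgeR 4.0.16 and DESeq2 1.42.0 on recovered reads were alternatives, edgeR calling 3324 genes for IFNT against control.

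The members and lists were chosen with earlier results of these data known. All GBP rows are named; of each list, the 2 genes with the smallest adjusted p for IFNT against control, plus IRF1 and a further gene chosen by name, which is not reported here; and the 5 genes most like the members by 2 measures. IFNG, NLRP3 and other low or flanking genes, markers, MX1, MX2 and the neighbours were named after their values were seen.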

Additional observations from a re-analysis of the deposited data

Results flagged for a closer look

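Within groups of 4, a sample was picked out where its gap to the nearest other sample made up more of the group's range than Dixon's 95% critical value allows; chance does this in about 1 of 20 groups, and 19 groups were examined. 4 were picked out, all in number 3. They were GBP4 with IFNT, at 6593 normalized counts, and the GBP6 row with gene ID 533657 with IFNT+PGF2A (365.6), with IFNT (411.9) and with PGF2A (8.94). In the GBP6 groups all other cultures had 0 or 1 reads, so the gap made up nearly the whole range whatever its size. The rate of 1 in 20 does not apply to those groups, and the number picked out is not to be set against it. The other 3 IFNT cultures had 4668 to 4984 normalized counts of GBP4. The cause was not tested for either gene.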

How the results depend on the processing

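The count of members called was 3 for each comparison of cultures with and without IFNT, and 0 for PGF2A against control, IFNT+PGF2A against IFNT and the interaction. It was the same in the alternatives that kept all samples: TMM scaling, edgeR, DESeq2, other filters, pseudocounts of 1 and 5, no trend, only the groups compared (not run for the interaction, which needs all 4) and the replicate block. Leaving out each sample, or each number in all groups, it ranged from 2 to 3 for IFNT+PGF2A against PGF2A, where GBP5 without number 2 had limma adjusted p = 0.058; it did not change elsewhere. With the block and each number left out in turn, an alternative chosen after seeing the data, it was 3 or 0 as with all numbers, and the GBP5 difference between IFNT+PGF2A and PGF2A without number 2 had limma adjusted p = 3.4e-06. With the replicate block the counts were again 3 and 0, so the block changed no call of a member. Over all genes, the counts called moved by over 1.5 times in some settings. With the block they were 6140 for IFNT against control (3384 without), 5696 for IFNT+PGF2A against PGF2A (2948), 5837 for IFNT+PGF2A against control (3127), 23 for PGF2A against control (0) and 99 for IFNT+PGF2A against IFNT (1). Without number 2 or number 3 in all groups, the first 3 of these comparisons gave 1965 and 1809, 1679 and 1463, and 1869 and 1629. Fitted on its own 2 groups, IFNT against control gave 2118. For PGF2A against control, DESeq2 and the unfiltered table each gave 2. For IFNT+PGF2A against IFNT, DESeq2 gave 9, and each fit without the block and without 1 number gave 0. With the block, that comparison gave 10 without number 3 and 334 without number 4. PGF2A against control then gave 4 and 96. With the block and without number 1 or number 2, both comparisons gave 0.

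Differences near 0 changed sign. For IFNT+PGF2A against IFNT, GBP5 (0.06) was -0.0304 in edgeR and -0.0322 in DESeq2, and -0.0264 with the block and without number 4. With samples left out, the log2 differences for PGF2A against control ranged from -0.639 to 0.325 for GBP4, -0.213 to 0.804 for GBP5 and -0.246 to 0.313 for GBP1. For IFNT+PGF2A against IFNT they ranged from -0.113 to 0.247 for GBP2, -0.0744 to 0.130 for GBP4, -0.381 to 0.537 for GBP5 and -0.102 to 0.0477 for GBP1. For the interaction they ranged from -0.31 to 0.654 for GBP4, -0.745 to 0.273 for GBP5 and -0.333 to 0.236 for GBP1. The cause was not tested. Depth limits GBP4 without IFNT, with 7 to 57 reads per library, and the GBP6 rows.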
